A study of Mus musculus with 6 samples.

Results

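Chromatin remodellers are protein machines built around an ATPase of the SNF2 family, and the genes described here encode those motors and many of their partner subunits. They were taken by name: every row of the deposited gene table whose symbol begins with Smarc, Arid, Ino80 or Chd, with Arid3a left out. This gave 37 of 19436 genes. Of these, 35 encode remodeller subunits, single motors or proteins with an ARID domain, a fold that binds DNA. The remaining pair matched by spelling only: Chdh encodes choline dehydrogenase, a mitochondrial enzyme, and Smarca5-ps is a pseudogene of Smarca5.

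RNA came from erythroid precursors of C57BL/6 mouse fetal liver at embryonic stage E14.5. The 3 -77-/- libraries lack, on both alleles, the -77 enhancer upstream of the transcription factor gene Gata2, and the 3 wild type libraries carry it. The labels name no other allele or agent in either genotype. They do not say whether each library came from its own embryo, so every p-value measures the spread between these libraries, which may be partly technical. The cells had been sorted for medium CD71 and no Ter119, a gate that can also hold early cells of other blood lineages. Replicates are numbered by the order of their records, and a number does not pair a -77-/- library with a wild type one.

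Remodellers use the energy of ATP to slide, evict or exchange nucleosomes, which sets how much of the DNA other factors can reach. Their families are told apart by the motor. SWI/SNF complexes mostly open chromatin, ISWI motors space nucleosomes evenly, CHD motors read histone tails and include the engine of the NuRD corepressor, and INO80 exchanges or moves nucleosomes that hold variant histones. In red cell development, GATA1 and its cofactor FOG1 are known to bring NuRD to their target genes, and SWI/SNF with the motor BRG1 is known to be needed at the beta globin locus in mice.

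The libraries held between 16516338 and 20468899 reads assigned to genes. Values below are normalized read counts, the authors' gene counts divided by 1 size factor per library. Gata2 had 74.2, 26.2 and 34.2 in -77-/- replicates 1 to 3, against 128, 87.8 and 61.5 in wild type replicates 1 to 3, and did not pass the test (log2 fold change -1.10, SE 0.60, limma adjusted p = 0.183). Xist was at 41877 in wild type replicate 2 and between 28.5 and 63.2 in the other 5 libraries, so that library alone has the expression of a female. Of 10 erythroid markers, 9 were lower in -77-/- and none was higher, with sums of 2932 to 6720 in -77-/- and 30599 to 33596 in wild type (limma adjusted p under 0.05 for each gene called). All 8 measured monocyte and macrophage markers were higher, with sums of 24973 to 34893 in -77-/- and 1183 to 2407 in wild type. Of 6 granulocyte markers 3 were higher and 2 lower, with sums of 41851 to 45575 and 12506 to 21179, and 4 of 5 B lymphoid markers were higher, with sums of 1239 to 2128 in -77-/- and 254 to 532 in wild type. Cd3e of T cells stood at 0 to 2.92 in every library, and Gp1bb of platelets at 0 in all -77-/- libraries. The part of these marker differences in any result below was not tested, and in such bulk samples fewer cells of a type and less RNA per cell cannot be told apart.

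Most remodeller genes did not pass the test, and the called changes of at least 2-fold among them were in ARID genes outside SWI/SNF. Of the 37 genes, 36 passed the filter of a mean of at least 10 in the higher genotype. Among the 36, 7 were higher in -77-/-, 4 were lower and 25 did not pass the threshold, an adjusted p of 0.05 in limma's moderated test over 15821 genes. Over all genes tested, 32.2% were called, 16.9% higher and 15.2% lower, so the 11 of 36 are near that background. Every one of the 3 called changes of at least 2-fold was a rise, in Arid5a, Arid5b and Arid3b, where 18.7% of all genes were called with such a change, 12.6% higher and 6.11% lower. The median log2 fold change of the 36 was -0.04, against 0.10 over all genes tested. The median size of the change, ignoring sign, was 0.33 against 0.72. Libraries of the genotypes did not overlap for 19 of the 36, against 46.5% of all genes tested. On recovered reads, edgeR called 11 of the 36 genes, against 29.9% of all genes tested. DESeq2 also called 11, against 33.1%, and limma-voom called 13, against 32.4%. In the authors' deposited table, 11 of the 37 had an adjusted p under 0.05, against 31.1% of its genes with one, and these were the 11 genes called here, in the same directions. Without wild type replicate 2, the count of higher genes fell to 4, with 4 lower. The share of all genes called in that smaller fit was not taken, so the fall is no result about these genes.

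**Figure D1:**
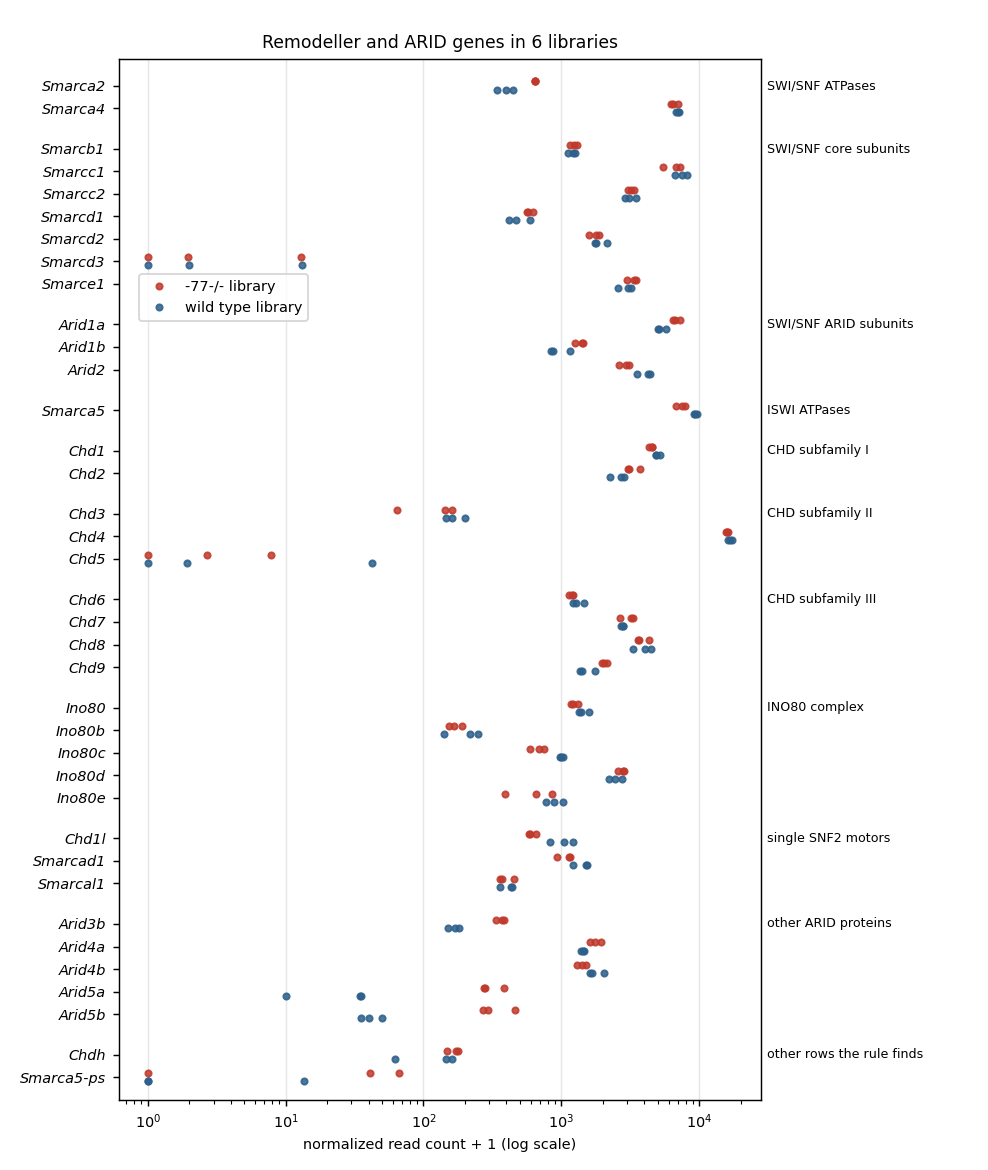
Normalized read counts plus 1 (log scale) of the 37 genes in each -77-/- library (red, upper row of each gene) and each wild type library (blue, lower row), grouped by complex. For Smarca4, Chd4 and most core subunits the points of the genotypes lie close together, whereas Arid5a and Arid5b form separate clouds.

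In SWI/SNF, the motor gene Smarca2 rose, and its alternative Smarca4 did not pass the test. Smarca4 encodes BRG1, one of the alternative ATPases of the complex. It had 6292, 6448 and 7040.2 in -77-/- replicates 1 to 3, against 6728, 7074 and 6996 in wild type (log2 fold change -0.07, SE 0.09, limma adjusted p = 0.583). Libraries of the genotypes overlapped, and the 95% interval of the log2 fold change was -0.28 to 0.13. Smarca2 encodes BRM, the other ATPase, which takes the same place in the complex. Its counts were 645, 641 and 638 in -77-/- replicates 1 to 3 and 447, 395 and 341 in wild type replicates 1 to 3. All 3 -77-/- libraries lay above all wild type libraries (log2 fold change 0.71, SE 0.20, limma adjusted p = 0.0113).

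The core subunits, which hold the complex together, did not pass the test in any of 6 tested cases. Of all genes tested, 32.2% were called. Most of the 6 had a mean of at least 1000, a level at which 54.3% of all genes tested were called. Smarcc1 and Smarcc2, paired scaffold subunits, had log2 fold changes of -0.19 (95% interval -0.45 to 0.06) and 0.04 (-0.20 to 0.28). Smarcb1, the subunit lost in human rhabdoid tumours, had 1308, 1152 and 1234 in -77-/- and 1115, 1209 and 1252 in wild type, a log2 fold change of 0.05 (-0.25 to 0.34). For Smarce1 the value was 0.16 (-0.10 to 0.42). Of the 3 alternative Smarcd subunits, Smarcd1 had 0.26 (-0.16 to 0.68) and Smarcd2, which mice need to make granulocytes, had -0.10 (-0.39 to 0.18). Smarcd3, known from heart muscle, was under the filter with 0, 0.972 and 11.95 in -77-/- and 12.2, 0.998 and 0 in wild type, and was not tested.

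The ARID subunits set which form of SWI/SNF is built, and all 3 genes were called, 2 higher and 1 lower. Each had a mean of at least 1000, a level at which 54.3% of all genes tested were called. Arid1a and Arid1b are the alternative ARID subunits of the canonical BAF form, and Arid2 belongs to the PBAF form. Arid1a had 6430.1, 6669.9 and 7237 in -77-/- replicates 1 to 3, against 5743, 5136 and 4996 in wild type (log2 fold change 0.36, SE 0.10, limma adjusted p = 0.013). Arid1b was also higher, at 1434, 1411 and 1258 in -77-/- and 1158, 873 and 844 in wild type (log2 fold change 0.52, SE 0.16, limma adjusted p = 0.0183). Arid2 was lower, at 3092, 2635 and 2939.5 in -77-/- and 4264, 4401 and 3542 in wild type (log2 fold change -0.49, SE 0.12, limma adjusted p = 0.00496). None of the 3 genes had overlapping genotypes, but neither did 65.6% of all genes tested at that level. The called changes were small beside those of Arid5a and Arid5b below. The call of Arid2 held in all 14 alternatives (adjusted p 7.8e-04 to 0.0319). The call of Arid1a ended without -77-/- replicate 3 (limma adjusted p = 0.0777) and without wild type replicate 2 (0.0531), and the 14 alternatives gave 0.00287 to 0.0777. That of Arid1b ended without -77-/- replicates 1 or 2 (0.0642 and 0.0642) and without wild type replicates 2 or 3 (0.0672 and 0.0502), and the 14 alternatives gave 0.0079 to 0.0672.

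**Figure D2:**
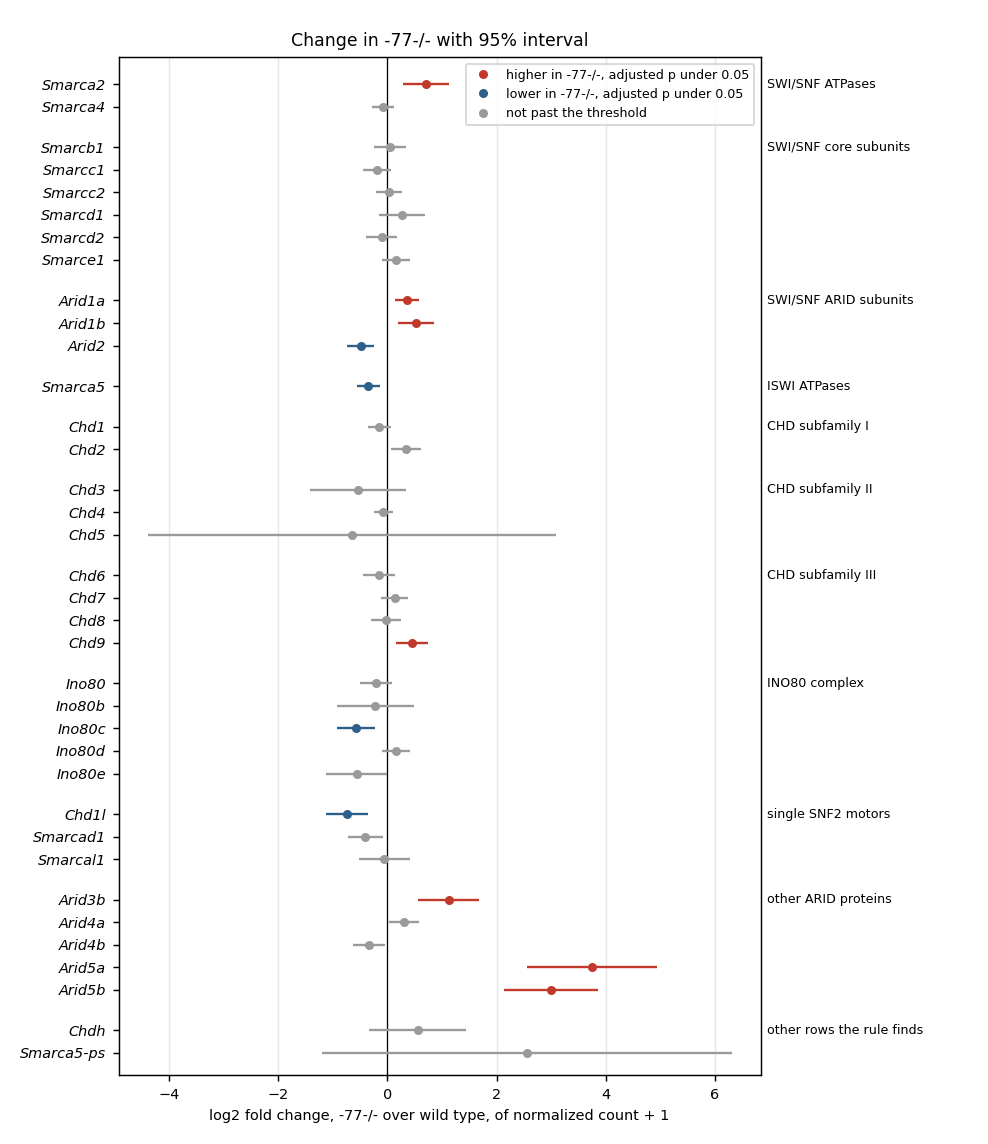
Log2 fold change, -77-/- over wild type, of each of the 36 tested genes (points) with its 95% interval (lines), coloured by the call at an adjusted p of 0.05. Intervals of the SWI/SNF core subunits all include 0, Arid1a and Arid1b lie above 0 and Arid2 below, and Arid5a and Arid5b stand at 3.74 and 3.001.

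ISWI was represented by its motor Smarca5, also called SNF2H, which spaces nucleosomes and is required for early blood formation in mice. It was lower in -77-/-, with 7498, 6729 and 7942 in replicates 1 to 3, against 9713, 9359 and 9108 in wild type (log2 fold change -0.35, SE 0.10, limma adjusted p = 0.0114). The groups did not overlap, and the call held in all 14 alternatives (adjusted p 0.00195 to 0.0426). The related motor Smarca1 was not analysed here. The pseudogene Smarca5-ps had 0, 65.1 and 40.1 in -77-/- and 0, 0 and 12.5 in wild type. Its sequence resembles Smarca5, and whether reads of the gene and its copy were split between them was not tested. Smarca5-ps did not pass (log2 fold change 2.55 with SE 1.76, limma adjusted p = 0.291).

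Among the 9 CHD motors, 1 was called, where 32.2% of all genes tested were called. Most of the 9 had a mean of at least 1000, a level at which 54.3% of all genes tested were called. Chd4, the ATPase of NuRD, had 15875, 15547 and 16044 in -77-/- replicates 1 to 3 and 16221, 16636 and 17161 in wild type (log2 fold change -0.08, SE 0.08, limma adjusted p = 0.513). All 3 -77-/- libraries lay under all wild type libraries, and the 95% interval of the log2 fold change was -0.25 to 0.10. Chd3, the alternative NuRD motor, had 143, 159 and 63.2 in -77-/- and 198, 159 and 144 in wild type, with -77-/- replicate 3 at the low end (log2 fold change -0.54, SE 0.41, limma adjusted p = 0.341). Chd5, a motor known from neurons and testis, had 0, 6.81 and 1.71 in -77-/- and 0.938, 0 and 41.0 in wild type. It entered the test through wild type replicate 3 alone, and it did not pass (log2 fold change -0.65 with SE 1.75, limma adjusted p = 0.807).

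Chd1 and Chd2, the CHD subfamily I, act in transcribed genes. Chd1 had 4534, 4323 and 4551 in -77-/- and 5159, 4872 and 4846 in wild type, each -77-/- library under each wild type library (log2 fold change -0.15, SE 0.10, limma adjusted p = 0.263). Chd2 had 3073, 3749 and 3033 in -77-/- and 2853, 2243 and 2719 in wild type (log2 fold change 0.33, SE 0.13, limma adjusted p = 0.0595). For Chd2, too, the libraries of the genotypes did not overlap, as for 65.6% of all genes tested with a mean of at least 1000. Chd2 passed when the filter was raised to a mean of 50 (limma adjusted p = 0.0499) and with limma-voom (0.048), and the 14 alternatives gave 0.048 to 0.239.

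Of the CHD subfamily III, Chd9 rose. It had 2034, 2146 and 1958 in -77-/- replicates 1 to 3, against 1764, 1355 and 1406 in wild type, with no overlap (log2 fold change 0.45, SE 0.13, limma adjusted p = 0.0183). The call ended without -77-/- replicate 2 (limma adjusted p = 0.0652) and without wild type replicate 2 (0.0794), and the 14 alternatives gave 0.00859 to 0.0794. Chd7, the gene mutated in human CHARGE syndrome, had 2655, 3297 and 3189.7 in -77-/- and 2729, 2803 and 2778 in wild type (log2 fold change 0.13, SE 0.12, limma adjusted p = 0.416). Chd8, a gene mutated in some forms of human autism, had 4353, 3637 and 3618 in -77-/- and 4069.9, 4452 and 3310.5 in wild type (log2 fold change -0.02, SE 0.13, limma adjusted p = 0.911). Those genes overlapped between genotypes. For Chd6 the counts were 1133, 1206 and 1184 in -77-/- and 1450.4, 1211 and 1271 in wild type, without overlap but also without a call (log2 fold change -0.15, SE 0.14, limma adjusted p = 0.418). The 95% intervals were -0.45 to 0.14 for Chd6, -0.12 to 0.38 for Chd7 and -0.29 to 0.25 for Chd8.

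In the INO80 complex, 1 of 5 genes was called, against 32.2% of all genes tested. The motor Ino80 had 1329, 1207 and 1169.7 in -77-/- replicates 1 to 3 and 1394, 1575 and 1337 in wild type (log2 fold change -0.21, SE 0.14, limma adjusted p = 0.25, 95% interval -0.51 to 0.08). The subunit gene Ino80c was lower, at 688, 590.1 and 744 in -77-/- and 1024, 995 and 974 in wild type, without overlap (log2 fold change -0.57, SE 0.16, limma adjusted p = 0.0129). The call ended without -77-/- replicate 2 (limma adjusted p = 0.0638), and the 14 alternatives gave 0.00973 to 0.0638. Ino80e had 861, 389 and 655 in -77-/- and 772, 1034 and 887 in wild type. Replicate 2 of -77-/- was lowest and replicate 1 lay within the wild type range, and the log2 fold change of -0.56 did not pass (limma adjusted p = 0.114). It passed without -77-/- replicate 1 (0.0256), with 0.0256 to 0.419 across the 14 alternatives. Ino80b and Ino80d had log2 fold changes of -0.22 and 0.15 with overlapping genotypes.

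A set of 3 motors works outside large complexes, and 1 of them was called, against 32.2% of all genes tested. Chd1l, also called ALC1, is activated by poly(ADP-ribose) at sites of DNA damage. It was lower in -77-/-, at 659, 582 and 593 in replicates 1 to 3, against 833, 1053 and 1220.5 in wild type (log2 fold change -0.74, SE 0.18, limma adjusted p = 0.00462). The genotypes did not overlap and the call held in all 14 alternatives (adjusted p 0.00149 to 0.0223). Smarcad1, a remodeller of heterochromatin and of DNA ends under repair, had 930.4, 1129 and 1146 in -77-/- and 1211, 1505 and 1521 in wild type, without overlap (log2 fold change -0.40, SE 0.15, limma adjusted p = 0.0552). It passed with the filter at a mean of 50 (limma adjusted p = 0.0439), with limma-voom (0.0482) and without wild type replicate 1 (0.0337), and the 14 alternatives gave 0.0337 to 0.175. Smarcal1, which rewinds DNA at stalled replication forks, had a log2 fold change of -0.05 (95% interval -0.52 to 0.41).

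ARID genes outside SWI/SNF held the 3 largest called changes of the 37. Arid5a, a protein known in mice to stabilise mRNAs of inflammatory cytokines such as Il6, had 278, 382 and 274 in -77-/- replicates 1 to 3, against 33.8, 8.98 and 34.2 in wild type (log2 fold change 3.74, SE 0.55, limma adjusted p = 1.0e-04). Arid5b, a transcriptional coregulator whose human gene carries risk variants for childhood leukaemia, had 269, 457 and 293 in -77-/- and 39.4, 48.9 and 34.2 in wild type (log2 fold change 3.001, SE 0.40, limma adjusted p = 3.9e-05). Both were far above every wild type library in all 3 -77-/- libraries and highest in -77-/- replicate 2. All 8 measured monocyte and macrophage markers were also higher in -77-/-, with the sums given above, and their part in this result was not tested.

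Arid3b, a DNA-binding protein of the same subfamily as Arid3a, had 372, 334 and 383 in -77-/- and 181, 149.7 and 169 in wild type (log2 fold change 1.12, SE 0.26, limma adjusted p = 0.00388). The calls of Arid3b, Arid5a and Arid5b held in all 14 alternatives, with log2 fold changes of 1.05 to 1.19, 3.14 to 4.05 and 2.75 to 3.15. Arid4a and Arid4b, related proteins of the SIN3 histone deacetylase complex, did not pass, with estimates of opposite sign. Arid4a had 1600.4, 1944 and 1744 in -77-/- and 1436, 1457 and 1390.3 in wild type (log2 fold change 0.30, SE 0.13, limma adjusted p = 0.0899). Arid4b had 1405, 1513 and 1287 in -77-/- and 2046, 1659 and 1615 in wild type (log2 fold change -0.33, SE 0.14, limma adjusted p = 0.0791). Neither gene had overlapping genotypes, as for 65.6% of all genes tested with a mean of at least 1000. Chdh, the enzyme that matched by spelling, had a log2 fold change of 0.55 and did not pass (limma adjusted p = 0.336).

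To show where the regulatory letters of the most changed genes stand, the 250 bases before the RefSeq start are given for Arid5a and Arid5b, the genes that rose most, and for Chd1l, the gene that fell most among the 36. They come from RefSeq on GRCm38.p6, a later build than the mm9 of the deposited table, and run 5′ to 3′ along the gene. Capitals mark any AGATAA or TGATAA (letters bound by GATA factors), GAGGAA (PU.1) and TGTGGT (RUNX), read on both strands.
Arid5a: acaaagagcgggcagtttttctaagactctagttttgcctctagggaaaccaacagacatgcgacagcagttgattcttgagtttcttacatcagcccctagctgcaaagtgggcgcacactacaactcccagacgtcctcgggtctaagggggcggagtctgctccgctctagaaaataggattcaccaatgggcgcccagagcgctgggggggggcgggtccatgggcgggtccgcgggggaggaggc
Arid5b: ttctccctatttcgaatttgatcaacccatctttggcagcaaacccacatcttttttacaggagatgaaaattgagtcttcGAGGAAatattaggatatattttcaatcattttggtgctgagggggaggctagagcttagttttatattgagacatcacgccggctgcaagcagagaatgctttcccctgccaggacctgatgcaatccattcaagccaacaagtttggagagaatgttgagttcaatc
Chd1l: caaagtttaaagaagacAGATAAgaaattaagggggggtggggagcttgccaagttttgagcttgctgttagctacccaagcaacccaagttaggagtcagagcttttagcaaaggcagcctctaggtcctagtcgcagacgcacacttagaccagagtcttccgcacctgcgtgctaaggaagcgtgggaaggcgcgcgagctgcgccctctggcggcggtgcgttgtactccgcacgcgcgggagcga
The windows lie at chr1:36307483-36307732 on the plus strand for Arid5a, at chr10:68278727-68278976 on the minus strand for Arid5b and at chr3:97610191-97610440 on the minus strand for Chd1l.

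Arid5a holds none of these letters in its window, Arid5b holds 1 GAGGAA and Chd1l holds 1 AGATAA. Of the 37 genes, 27 had a RefSeq window, 36 windows in all since some genes have several starts. AGATAA or TGATAA was present in 16.7% of these windows and in 16.6% of all 32851 windows. For GAGGAA the shares were 13.9% and 23.3%, and for TGTGGT 8.33% and 14.1%. Either GATA string was present in 6 genes of the families. Of the 9 called genes with a window, those with either GATA string were Arid1a, Arid3b, Chd9 and Chd1l, of which 3 rose and 1 fell. Called genes with GAGGAA were Arid1b and Arid5b, which rose, and Smarca5, which fell. No called gene had TGTGGT in its window. A match is a run of letters and not a bound site, and a window without one says nothing of the factor.

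**Figure D3:**
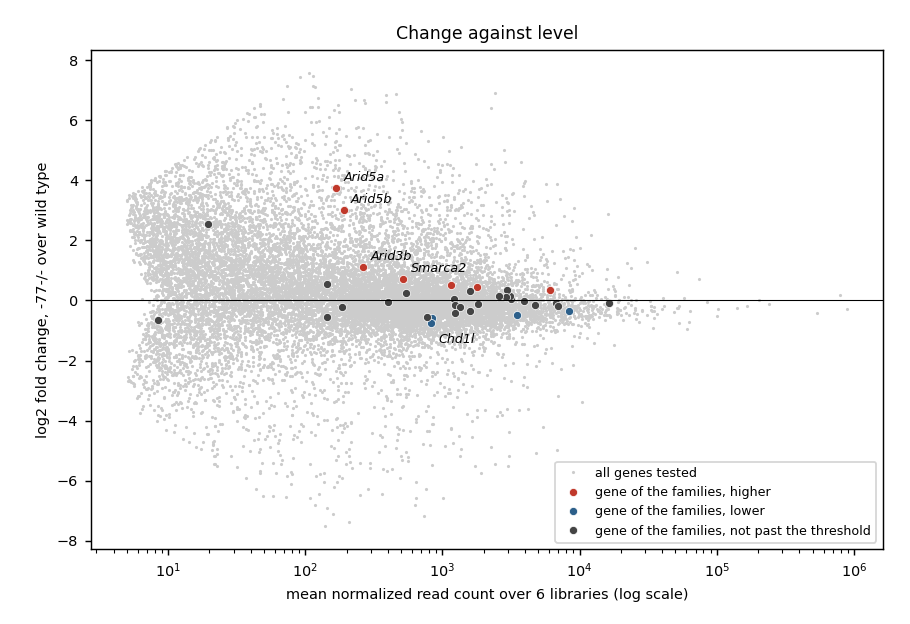
Log2 fold change, -77-/- over wild type, against the mean normalized read count over the 6 libraries (log scale), for all 15821 genes tested (grey) and the 36 genes of the families (coloured by call). The 3 genes called with a rise of at least 2-fold lie to the left of most others, and genes of the families with a mean of at least 1000 lie in a narrow band around 0.

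Highly expressed genes of the families changed little. Among the 22 genes of the families with a mean of at least 1000, a limit chosen after the values were seen, 3 were higher and 2 lower, and 21 had a log2 fold change of less than 0.5 in size. Of all 3520 tested genes at that level, 54.3% were called and 57.8% had a change of that size or less. The median size of change was 0.18 for the 22 genes and 0.41 for all genes at that level. The median coefficient of variation of the 22 genes was 7.35% in -77-/- and 9.59% in wild type, against 9.05% and 9.64% for all genes at that level.

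Some related genes, such as Smarca2 and Smarca4, can take the same place in a complex. Other pairs are not alternatives in 1 complex, such as Arid2 and Arid1a, so a ratio does not by itself show an exchange of subunits. For each pair the log2 ratio was computed within each library, where library scaling cancels. Of 14 pairs considered, 12 had both genes in the test, and 6 of these had ratios that did not overlap between genotypes. Single genes did not overlap for 46.5% of all genes tested, and a share near that is no result about the pairs. With 3 libraries against 3, the exact two-sided permutation test cannot go below p = 0.1, which these 6 reached (0.2 after Benjamini-Hochberg adjustment over the 12). The Smarca2/Smarca4 log2 ratio was -3.29, -3.33 and -3.46 in -77-/- replicates 1 to 3, against -3.91, -4.16 and -4.36 in wild type, a difference of 0.78. The Arid2/Arid1a log2 ratio, which sets the PBAF subunit against the BAF subunit, was -1.06, -1.34 and -1.30 in -77-/- and -0.43, -0.22 and -0.50 in wild type, a difference of -0.85. For Arid4b/Arid4a the log2 ratio was below 0 in each -77-/- library, at -0.19, -0.36 and -0.44, and above 0 in each wild type library, at 0.51, 0.19 and 0.22. Differences in log2 ratio were 0.48 for Chd2/Chd1, 0.47 for Chd9/Chd8 and 0.23 for Smarcc2/Smarcc1. Overlapping pairs included Arid1b/Arid1a, with a difference of 0.17, and Arid5b/Arid5a, whose wild type ratio was 0.22, 2.32 and 0 in replicates 1 to 3, with Arid5a at 8.98 in replicate 2. These ratios compare genotypes and do not rank the levels of different genes, which also depend on transcript length.

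**Figure D4:**
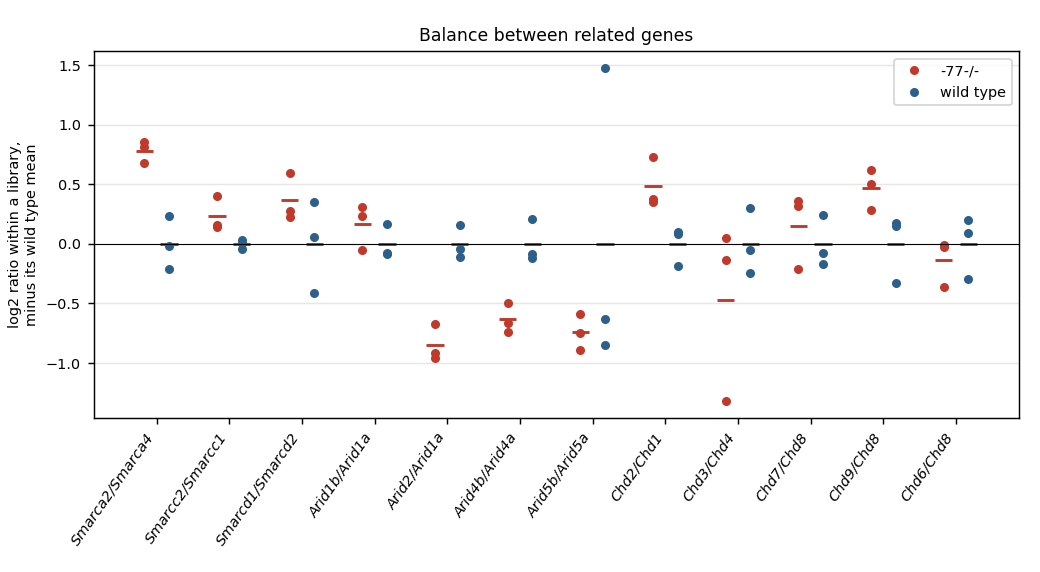
Within-library log2 ratio of the counts of 12 pairs of related genes, minus the wild type mean of that ratio, in -77-/- libraries (red) and wild type libraries (blue). Points are libraries and bars are means of 3. Smarca2/Smarca4 lies above and Arid2/Arid1a and Arid4b/Arid4a lie below every wild type point in all 3 -77-/- libraries.

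Partner genes that the name rule does not reach were described from a list of subunits and further SNF2 proteins. All 70 with a row entered the test: 5 were higher, 13 lower and 52 did not pass, against the background of 16.9% higher and 15.2% lower. NuRD had 5 of 12 partners lower and none higher. Most of these 12 had a mean of at least 1000. Of all 3520 genes tested at that level, 54.3% were called, 708 genes higher and 1203 lower. Mbd2, a reader of methylated DNA, had 1650.2, 1574 and 1874 in -77-/- replicates 1 to 3, against 3122, 3711 and 2737 in wild type (log2 fold change -0.90, SE 0.13, limma adjusted p = 1.0e-04). The scaffold genes Mta1, Mta2 and Mta3 had log2 fold changes of -0.55, -0.51 and -0.60, and the deacetylase Hdac2 had -0.45, all called. The deacetylase Hdac1 (-0.15), Mbd3 (-0.31), Gatad2a (0.04) and the histone chaperones Rbbp4 (0.17) and Rbbp7 (0.02) did not pass.

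In SWI/SNF 2 of 15 partners were higher and 3 lower. Over all genes tested, 16.9% were higher and 15.2% lower, so this count is near the background. Phf10, a PHD finger subunit found in PBAF with Arid2, had 874, 617 and 810.2 in -77-/- replicates 1 to 3, against 2984, 2449 and 2183 in wild type (log2 fold change -1.73, SE 0.16, limma adjusted p = 1.1e-06). The other PBAF genes Pbrm1 (-0.05, limma adjusted p = 0.771) and Brd7 (-0.35, limma adjusted p = 0.052) did not pass, Brd7 only narrowly. The actin-related subunit Actl6a and Bcl7a were lower, with log2 fold changes of -0.59 and -0.71, and Ss18 was higher, with 0.54. Actb also rose (0.96), but it encodes the cytoskeletal actin of every cell as well as a subunit.

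Of 9 ISWI partners, Pole3 was lower and Baz2a was higher (0.41), where 32.2% of all genes tested were called. Most of the 9 had a mean of at least 1000, a level at which 54.3% of all genes tested were called. Pole3, a histone-fold protein shared by the CHRAC remodeller and DNA polymerase epsilon, had 883, 676 and 959.6 in -77-/- and 1817, 1933 and 1747 in wild type (log2 fold change -1.14, SE 0.15, limma adjusted p = 4.4e-05). The large ISWI partners Bptf (-0.16), Baz1a (-0.20) and Baz1b (-0.15) had no call, although Smarca5 itself was lower. Among 17 partners in INO80, SRCAP and TIP60, the AAA+ ATPase Ruvbl1 (-0.62) and the nuclear actin-related protein Actr8 (-0.59) were lower and none was higher. Over all genes tested, 15.2% were lower and 16.9% higher. The motors Srcap (0.08) and Ep400 (0.11) of the related complexes did not pass.

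Of 12 further SNF2 proteins, Btaf1 was lower and Hells was higher. Over all genes tested, 32.2% were called, which is the background also for the ARID proteins named below. Most of the 12 had a mean of at least 1000, a level at which 54.3% were called. Btaf1, which strips the TATA-binding protein from DNA, had 3572, 2837 and 3251 in -77-/- replicates 1 to 3, against 7190.3, 8331 and 7218 in wild type (log2 fold change -1.24, SE 0.11, limma adjusted p = 7.8e-07), the largest called change among the SNF2 motors described here. Hells, a motor needed for DNA methylation, had a log2 fold change of 0.35. Of 5 ARID proteins of other name, the Polycomb partner Jarid2 was higher (0.59) and the histone demethylase Kdm5b was lower (-0.60). Kdm5d lies on the Y chromosome and had 586, 764 and 575 in -77-/- and 608, 2.99 and 613 in wild type, near 0 in wild type replicate 2.

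**Figure D5:**
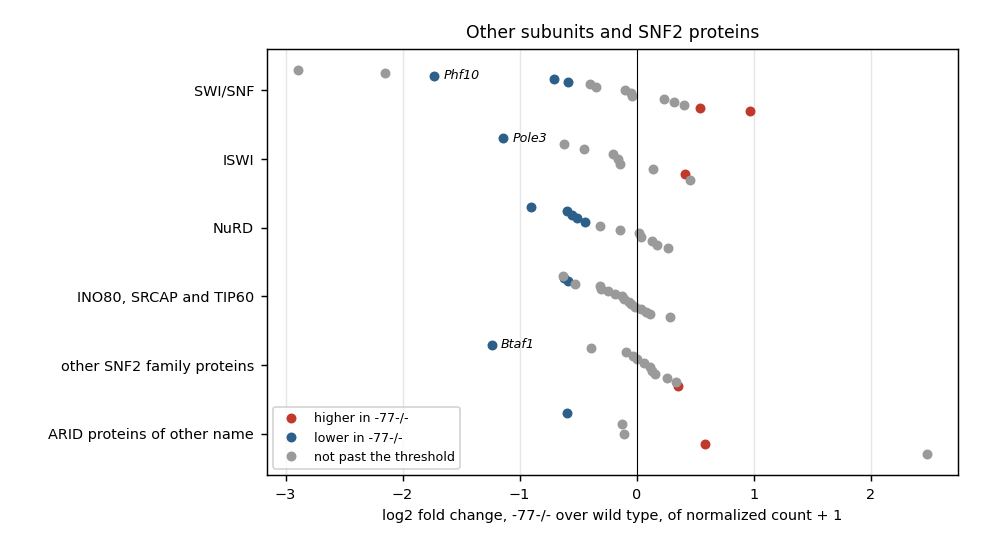
Log2 fold change, -77-/- over wild type, of 70 partner genes by complex, coloured by the call at an adjusted p of 0.05. Names are given for called genes with a change of at least 1, and the called NuRD partners all lie below 0.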

How the data were processed

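RNA of 3 -77-/- and 3 wild type libraries of sorted mouse fetal liver cells was analysed from 1 gene table. Per the labels' protocols, a NuGEN Ovation kit for single cells turned 10 ng of RNA per sample into a library. Bowtie, STAR 2.5, RSEM 1.2.31, DESeq2 and the mm9 build are named per the submitters' processing notes. The role of each aligner, the DESeq2 version, the annotation and the strand setting are not given in the sources used here. Deposited values of the 6 libraries are a signal, namely each gene's reads over a size factor of the library (0.878 to 1.17). All values were whole multiples of 1 step per library within 0.01 of a read, so reads could be recovered. They summed to 16516338 to 20468899 per library, and 3 reads correspond to 2.56 to 3.42 normalized counts. Counting error is only part of the spread, since amplified reads are not independent molecules. Of 19444 rows, 8 small RNA rows with cells moved sideways were left out. From the authors' own deposited test, log2 fold changes and adjusted p-values were used for comparison only.

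Values were tested as log2(value + 1) with limma 3.58.1 in R 4.3.3 (trend, robust), on the 15821 genes with a mean of at least 10 in the higher genotype, with Benjamini-Hochberg adjustment over all of them and a threshold of 0.05. Fold changes are -77-/- over wild type, and the added 1 shrinks those of low genes. Simulated data with known changes were used to check the test. Ratios of related genes were compared with an exact two-sided permutation test. Alternatives were edgeR 4.0.16 with TMM, DESeq2 1.42.0 and limma-voom on recovered reads, pseudocounts of 0.1 and 10, no filter, a filter at a mean of 50, upper quartile scaling, and leaving out each library. The genes and lists were chosen with earlier results of these data known. Given with the value of every library are the catalytic genes and any other gene of the families called with a log2 fold change of at least 1 in size, and other called ones are given likewise. Partner genes are named where called with such a change, and the remaining ones named were chosen after their values were seen. Smarca1, Arid3c and 2 of 72 partner symbols, Actl6b and Gltscr1l, were not analysed here. Srcap and Rad54b have 2 rows, and the row with more reads was used.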

Additional observations from a re-analysis of the deposited data

How the results depend on the processing

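No paired analysis was possible because the labels give no replicate numbers. Of 36 tested genes, 11 were called, and the other tests, scalings, pseudocounts and filters gave 11 to 13. Leaving out 1 library in turn gave 8 to 12 called, 4 to 7 higher and 3 to 5 lower. The share of all genes called was not taken for the fits that leave out a library. Counts of genes or partners from those fits therefore have no background beside them. The fewest higher calls, 4, came without wild type replicate 2. Partner genes gave 15 to 19 calls when 1 library was left out, 3 to 5 of them higher and 11 to 15 lower, with the fewest higher, 3, without -77-/- replicate 3. Between 6 and 8 of the 12 ratios did not overlap when 1 library was left out. Some estimates with no call turned direction in these fits, with log2 fold changes of -1.71 to 0.085 for Chd5 (-0.65 with all libraries and -2.30 with DESeq2), -0.14 to 0.071 for Chd8, -0.0015 to 0.093 for Smarcb1, -0.019 to 0.11 for Smarcc2 and -0.16 to 0.0086 for Smarcal1, and the cause was not tested. The direction of every call among the 36 genes held in all alternatives run. The median log2 fold change of all genes lay between -0.0045 and 0.15 over the settings. Smarcd3 had 15 reads in all in -77-/- and 14 in wild type, under the filter, so nothing is said of a difference. In the authors' deposited test its log2 fold change was -0.03 with SE 2.63 (adjusted p = 0.995). Chd5 and Smarca5-ps had 0 in some libraries and up to 41.0 and 65.1 in others, and the part of depth in that spread was not tested.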
